A study of Rattus norvegicus with 9 samples.

Results

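The expression of 10 growth factor and receptor genes was followed in the livers of normal rats and of rats with acute-on-chronic liver failure (ACLF). The genes were hepatocyte growth factor (Hgf), its activating protease (Hgfac) and its receptor Met, the EGF receptor ligands Egf, Tgfa, Hbegf and Areg, the receptors Egfr and Erbb3, and the FGF receptor Fgfr2. They were taken by symbol from tables of 32883 rat genes, in which each symbol had 1 row. The 9 livers were those of 3 normal rats, 3 ACLF rats of the empty group and 3 ACLF rats of the UTOpiA group. All ACLF rats were male Sprague-Dawley rats, 8 to 11 weeks old, that had bile duct ligation (BDL) for 21 days and then an intraperitoneal dose of lipopolysaccharide (LPS) at 0.25 mg/kg. Whole blood was circulated outside the body for 2 h, starting 1 h after LPS. In the empty group the circuit held neither adsorption column nor cells. In the UTOpiA group it held a granulocyte and monocyte adsorption (GMA) column and alginate-encapsulated hepatocyte-like cells made from hypoimmune human iPSCs (iHLCs). ACLF livers were taken 24 h after LPS from surviving rats chosen at random. The labels say of normal livers only that they were normal, so BDL, LPS and the circuit cannot be told apart in a comparison with them.

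HGF is made in the liver mainly by stellate and endothelial cells and is secreted as an inactive precursor, which serine proteases such as HGF activator cut to the form that binds MET on hepatocytes and cholangiocytes. EGF, TGF-alpha, HB-EGF and amphiregulin are made as membrane-bound precursors, are shed by proteases and bind EGFR, which is abundant on hepatocytes. ERBB3 binds neuregulins, has little kinase activity of its own and signals with a partner receptor. Ligand-bound MET, EGFR and FGF receptors all feed into the ERK cascade, and the HGF and EGF receptor pathways are known for driving hepatocyte proliferation when the liver regenerates.

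Promoter sequences were found in RefSeq (build GRCr8) for 9 of the 10 genes, all except Erbb3. The 250 bases before the annotated start of 4 of them are shown 5′ to 3′ in the direction of transcription, for a ligand that was higher in ACLF livers (Hgf), a ligand and a receptor that were lower (Egf and Egfr) and a ligand that was almost absent (Areg). Capitals mark matches on either strand to the AP-1 motif TGANTCA, the cyclic AMP response element TGACGTCA, the GC box GGGCGG, the TATA box TATAAA or the nuclear receptor core motif AGGTCA.
Hgf (chr4:19700468-19700717, minus strand): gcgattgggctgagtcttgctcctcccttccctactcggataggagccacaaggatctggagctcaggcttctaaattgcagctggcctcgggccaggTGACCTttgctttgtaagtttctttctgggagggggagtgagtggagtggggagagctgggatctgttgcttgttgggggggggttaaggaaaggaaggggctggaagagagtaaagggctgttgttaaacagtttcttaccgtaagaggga
Egf (chr2:220976298-220976547, minus strand): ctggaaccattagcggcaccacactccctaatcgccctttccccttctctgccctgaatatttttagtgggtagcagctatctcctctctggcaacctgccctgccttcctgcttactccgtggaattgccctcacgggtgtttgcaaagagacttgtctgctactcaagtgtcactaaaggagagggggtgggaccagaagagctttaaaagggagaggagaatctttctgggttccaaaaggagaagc
Egfr (chr14:95378376-95378625, plus strand): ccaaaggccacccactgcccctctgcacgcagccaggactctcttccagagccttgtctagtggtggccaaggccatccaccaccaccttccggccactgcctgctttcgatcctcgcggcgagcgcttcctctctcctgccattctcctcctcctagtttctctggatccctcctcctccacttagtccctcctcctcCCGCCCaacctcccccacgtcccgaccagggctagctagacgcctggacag
Areg (chr14:17265642-17265891, minus strand): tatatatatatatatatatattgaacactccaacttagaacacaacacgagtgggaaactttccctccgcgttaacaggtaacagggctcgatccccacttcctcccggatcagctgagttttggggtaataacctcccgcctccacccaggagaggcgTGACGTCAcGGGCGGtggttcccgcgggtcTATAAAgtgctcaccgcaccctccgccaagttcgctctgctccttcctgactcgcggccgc

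The Hgf window held 1 match, the AGGTCA core motif in reverse, 152 to 147 bases before the start, and AGGTCA was present in 14.1% of the 33469 RefSeq promoter windows of this length. The Egfr window held a GC box, as did the windows of Tgfa, Areg and Fgfr2 and 30.5% of all windows. The Areg window also held a cyclic AMP response element, 91 to 84 bases before the start, and a TATA box, 61 to 56 bases before it. Those motifs occurred in 1.59% and 12.9% of all windows. The AP-1 motif, present in 6.34% of windows, had no match in the 9 windows of these genes. RefSeq places Egf on the minus strand, whereas the deposited tables, whose coordinates are of another build, place it on the plus strand. The strands of the other 8 genes were the same in both. None of the matches shown overlapped each other. The matches describe the sequence only, since the data hold no measurement at promoters.

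Between 14241172 and 17321677 reads were counted per library. Albumin took 13.3 to 14.9% of the reads of normal and 1.54 to 3.91% of those of ACLF livers, and the scaling used here (TMM, trimmed mean of M-values) gave normal libraries factors of 0.80 to 0.83 and ACLF libraries 0.86 to 1.32. Log2 fold changes below are on the TMM scale unless stated. Levels are given as TPM (transcript abundance scaled per gene length), which take no account of this shift: on library totals alone the median log2 fold change of all genes was 0.60 between empty and normal livers. Summed TPM of 8 hepatocyte markers was 168436 to 184740.4 in the normal group and 42689 to 80474 in the ACLF groups, and that of 6 cholangiocyte markers was 14.5 to 24.8 and 128 to 610.0 in the same order. All 6 cholangiocyte markers and 7 of 10 stellate cell and fibroblast markers were called higher in empty livers than in normal livers, and 5 of 8 hepatocyte markers were called lower. In bulk tissue, fewer cells of a type and less RNA per cell cannot be told apart, and the part of these shifts in the results below was not tested.

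**Figure D1:**
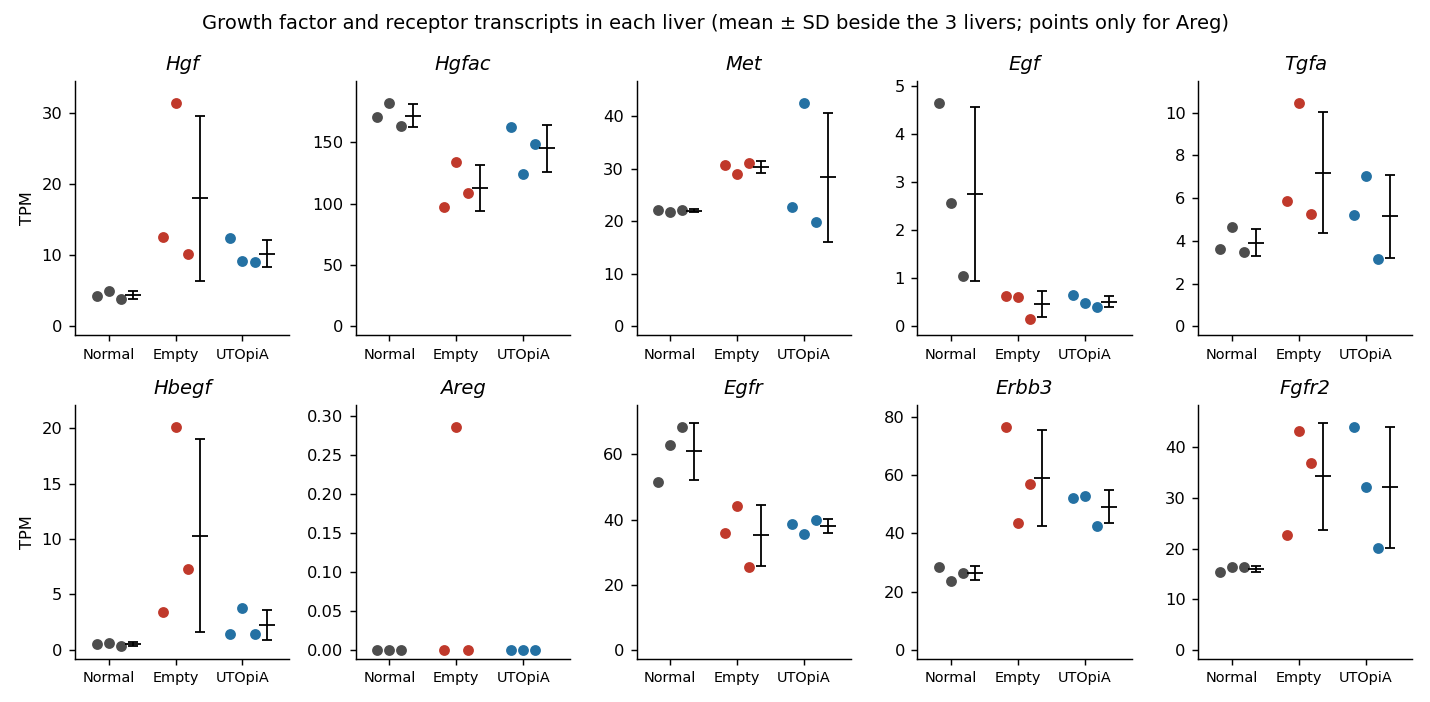
TPM of the 10 genes in each liver (y axis) by group (x axis: normal, empty and UTOpiA). Each point is 1 liver, and the bar beside each group is the mean ± SD over 3 livers, left out for Areg, which had 3 reads in all. Hgf lay at 3.82 to 4.94 TPM in normal livers and at 9.06 to 31.4 TPM in the 6 ACLF livers, whereas Egf and Egfr lay lower in every ACLF liver than in every normal liver.

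A gene counted as called if it passed edgeR's quasi-likelihood test, fitted over 14089 genes, with an adjusted p (Benjamini-Hochberg) below 0.05 and differed more than 2-fold. Of the 10 genes, 9 passed the filter on low counts and Areg did not. Against normal livers, 2 genes (Hgf and Hbegf) were called higher in empty livers, beside 20.7% of all tested genes, and 3 genes (Egf, Egfr and Hgfac) were called lower, beside 11.1% of all tested genes. In UTOpiA livers, 1 gene (Egf) was called lower than in normal livers, beside 6.81% of all tested genes, and 0 were called higher, beside 18.2%. Egfr was called lower there as well without normal liver 1 or UTOpiA liver 3, and Hbegf was called higher without empty liver 1 or 2. In TPM, 9 of the 9 tested genes did not overlap between empty and normal livers, as was the case for 66.3% of all tested genes. For these 9 comparisons the two-sided exact permutation test gave p = 0.1 with n = 3 livers per group, the smallest p this design allows. Between UTOpiA and normal livers 7 of the 9 did not overlap, beside 52.4% of all tested genes.

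**Figure D2:**
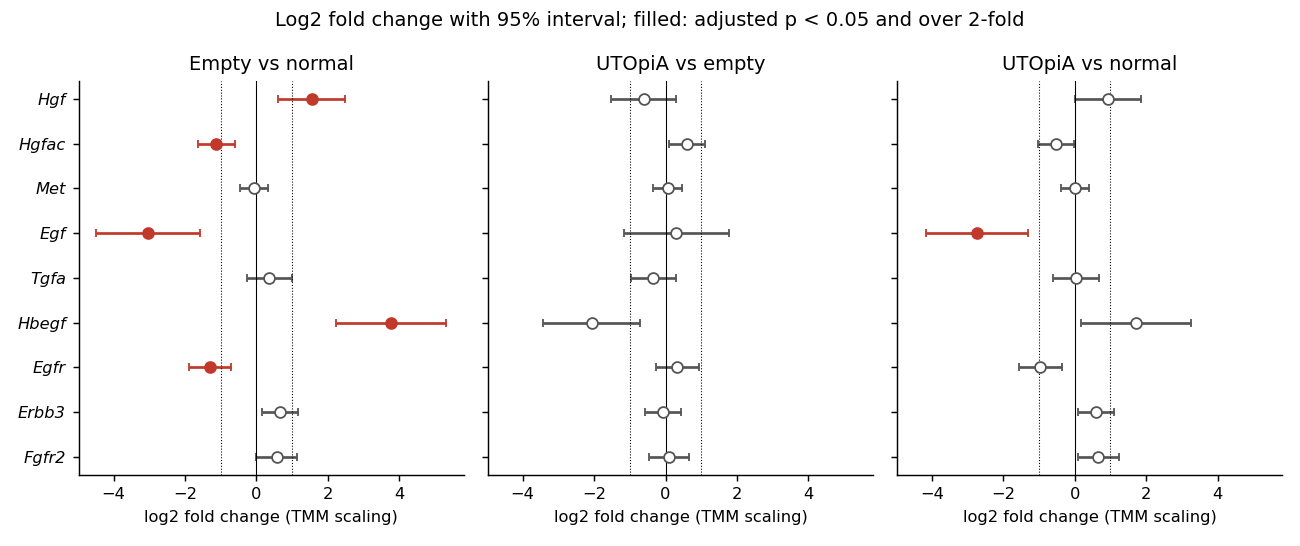
Log2 fold change of the 9 tested genes on the TMM scale (x axis) with its 95% interval, in 3 comparisons. Filled points passed the adjusted p and the 2-fold threshold, marked by dotted lines. The called genes are Hgf, Hgfac, Egf, Hbegf and Egfr in empty livers and Egf in UTOpiA livers, each against normal livers, and none is called between UTOpiA and empty livers.

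On the TPM scale, the activating protease Hgfac had the highest level in normal livers (163 to 182 TPM), followed by Egfr (51.4 to 68.4 TPM), Erbb3 (23.8 to 28.5 TPM), Met (21.7 to 22.2 TPM) and Fgfr2 (15.3 to 16.4 TPM). The ranges of these neighbours did not overlap. Among the ligands, Hgf (3.82 to 4.94 TPM), Tgfa (3.48 to 4.65 TPM) and Egf (1.04 to 4.64 TPM) overlapped in normal livers, and Hbegf (0.352 to 0.663 TPM) lay below all of these. In empty livers Erbb3 had the highest mean after Hgfac, with a range that met that of Egfr in empty liver 2, and the ranges of Egfr, Fgfr2, Met and Hgf overlapped.

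Hgf transcripts rose in the ACLF livers of the empty group, those of its activating protease Hgfac fell relative to all genes, and no difference was called for its receptor Met. Hgf (chr4:15433295-15505362, minus strand, in the coordinates of the deposited tables) measured 4.29, 4.94 and 3.82 TPM in normal livers 1 to 3. In empty livers it measured 12.5, 31.4 and 10.2 TPM. In UTOpiA livers it measured 12.5, 9.18 and 9.06 TPM. All 6 ACLF livers thus lay above the 3 normal livers, and empty liver 2 stood far above the other two of its group. The log2 fold change of Hgf against normal livers was 1.55 (SE 0.41, edgeR adjusted p = 0.0132) in empty livers and 0.93 (SE 0.41, adjusted p = 0.0989) in UTOpiA livers. Without empty liver 2 the first value was 0.87 with an adjusted p of 0.0120, which is under 2-fold, so that call rested on this liver. The UTOpiA value passed both thresholds on library totals (1.28, adjusted p = 0.0221), by limma on log2(TPM + 1) and log2(TPM + 0.1), and by DESeq2 without UTOpiA liver 2 (1.1, adjusted p = 0.0489). Summed TPM of 10 stellate cell and fibroblast markers, the cell type in which Hgf is best known, was 112 to 125 in normal livers and 462 to 1068 in UTOpiA livers. In empty livers 1 to 3 it was 1079, 880.4 and 982, lowest in liver 2, where Hgf was highest. That of 7 endothelial markers was 87.0 to 97.0 in normal and 77.5 to 103 in UTOpiA livers. It was 87.5, 145 and 70.4 in empty livers 1 to 3. The part of these cell types in the Hgf result was not tested.

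Hgfac (chr14:80966903-80973456, minus strand), which encodes the plasma protease that activates pro-HGF and is made by hepatocytes, measured 171, 182 and 163 TPM in normal livers, 96.8, 134 and 109 TPM in empty livers and 163, 124 and 148 TPM in UTOpiA livers. The empty livers lay below all normal livers. The UTOpiA livers lay below them too, by very little in UTOpiA liver 1, and overlapped the empty livers. Its log2 fold change was -1.12 (SE 0.23, adjusted p = 0.0033) in empty livers on the TMM scale and -0.58 on library totals, where it was not called. Relative to the median of all genes the library-total value was -1.18. Summed TPM of the hepatocyte markers moved in the same direction, as given above, and its part in this result was not tested.

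Met (chr4:44774741-44852665, plus strand), the HGF receptor, measured 22.2, 21.7 and 22.1 TPM in normal livers, 30.7, 29.0 and 31.1 TPM in empty livers and 22.7, 42.4 and 19.8 TPM in UTOpiA livers. Its TPM was higher in every empty liver than in every normal liver, whereas its log2 fold change was -0.06 on the TMM scale (95% interval -0.45 to 0.33, adjusted p = 0.80) and 0.49 on library totals. Relative to the median of all genes on library totals it was -0.11, so the sign of the Met difference depended on the scaling. UTOpiA liver 2 had the highest Met level of all 9 livers, and the other two UTOpiA livers lay near normal. The ratio of Met to Hgf TPM was 4.39 to 5.79 in normal livers, 0.92 to 3.04 in empty livers and 1.82 to 4.62 in UTOpiA livers, a ratio that does not depend on the scaling of libraries. Only in UTOpiA liver 2 did it reach the normal range.

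**Figure D3:**
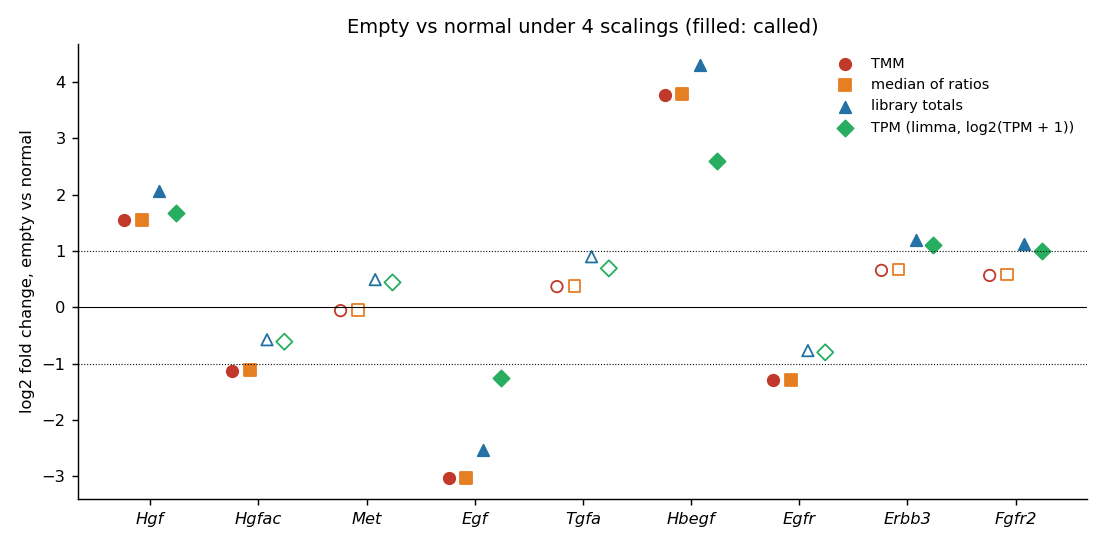
Log2 fold change of the 9 tested genes between empty and normal livers (y axis) under 4 scalings. Filled symbols were called, and dotted lines mark 2-fold. Hgf, Hbegf and Egf are called under all 4, Hgfac and Egfr only under TMM and median of ratios, and Erbb3 and Fgfr2 only under library totals and TPM.

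Of 24 genes of HGF activation and signalling, all tested, 9 were called higher in empty livers than in normal livers, beside 20.7% of all tested genes, and 3 lower, a share near the 11.1% of all tested genes, with a median log2 fold change of 0.30 beside 0.045 for all genes. The genes called higher included proteases, a protease inhibitor and a co-receptor. Spint1, an inhibitor of HGF activator and matriptase, had 1, 5 and 1 reads in the normal livers and 468, 887 and 715 reads in the empty livers. It was called higher, and no fold is given because the normal livers were near the limit of detection. Cd44, whose splice forms act as a co-receptor of MET, had a log2 fold change of 6.84 (SE 0.51). St14 (matriptase) went from 0.85 to 0.91 TPM in normal livers to 24.6 to 48.4 TPM in empty livers, and Plau, the urokinase that can cut pro-HGF, from 3.87 to 3.95 TPM to 40.8 to 64.9 TPM. Its receptor Plaur, the tissue plasminogen activator Plat, Stat3 and Hgf itself were also called higher.

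The 3 genes called lower were the proteases Tmprss6 and F12 and the activator Hgfac. The log2 fold change was -1.62 (SE 0.25) for Tmprss6 (matriptase-2, which controls hepcidin) and -1.44 (SE 0.32) for F12 (coagulation factor XII, which can activate pro-HGF). Hepsin (Hpn), a hepatocyte protease that also cuts pro-HGF, had a log2 fold change of -1.03 (SE 0.39, adjusted p = 0.0511) and was not called. On library totals 1 of the 24 was called lower, and without empty liver 2 it was 5, with Hpn and Klkb1 (plasma kallikrein) added. In UTOpiA livers 8 of the 24 genes were called higher than in normal livers, beside 18.2% of all tested genes, and 1 (Tmprss6) lower, beside 6.81%, to which F12 was added without UTOpiA liver 3, with a median of 0.59 beside 0.053 for all genes. Spint1, St14 and Cd44 are expressed in biliary epithelium, and the cholangiocyte markers moved with them, as given above. Other markers were called higher in empty livers too: 7 of 10 stellate cell and fibroblast, 5 of 7 macrophage, 5 of 5 neutrophil, 4 of 5 T lymphocyte and 4 of 4 erythroid markers. For endothelium it was 1 of 7 and for B lymphocytes 0 of 2. The part of these cell types was not tested.

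Among the EGF receptor ligands, Hbegf rose and Egf fell in empty livers, no difference was called for Tgfa, and Areg was almost undetected. Hbegf (chr18:29329764-29340403, minus strand), an injury-induced ligand made by many cell types, measured 0.542, 0.663 and 0.352 TPM in normal livers, which rest on 7 to 13 reads each. In empty livers it measured 3.44, 20.1 and 7.34 TPM. In UTOpiA livers it measured 1.45, 3.76 and 1.46 TPM. Every ACLF liver lay above the normal livers, and empty liver 2 was again the highest. The log2 fold change against normal livers was 3.78 (SE 0.69, adjusted p = 0.0021) in empty livers and 2.80 without empty liver 2. It was 1.71 (SE 0.68, adjusted p = 0.0734) in UTOpiA livers, which did not pass the test. There Hbegf was called under 8 of 20 alternatives, among them DESeq2 (1.72, adjusted p = 0.0249). Others were library totals (2.12, edgeR adjusted p = 0.0356) and only the compared groups (1.73, edgeR adjusted p = 0.0185).

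Egf (chr2:68820615-68895920, plus strand), the founding ligand of the family, measured 4.64, 2.57 and 1.04 TPM in normal livers, 0.637, 0.612 and 0.150 TPM in empty livers and 0.643, 0.484 and 0.408 TPM in UTOpiA livers. The normal livers spread widely, from 38 to 158 reads, yet all lay above the ACLF livers, which had 6 to 27 reads each. The log2 fold change was -3.04 (SE 0.65, adjusted p = 0.0043) in empty livers and -2.74 (SE 0.64, adjusted p = 0.0091) in UTOpiA livers. Without normal liver 1, which had the highest level, these values were -2.42 and -2.13. Egf was called in both comparisons under every alternative in which it was tested, 20 in each.

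Tgfa (chr4:117962319-118046344, plus strand), a ligand that hepatocytes make when they proliferate, measured 3.61, 4.65 and 3.48 TPM in normal livers, 5.88, 10.4 and 5.25 TPM in empty livers and 5.21, 7.05 and 3.16 TPM in UTOpiA livers. Its log2 fold change in empty livers was 0.37 (SE 0.28, adjusted p = 0.31), and -0.02 without empty liver 2. Areg (chr14:18521930-18531179, minus strand), which encodes amphiregulin, had 3 reads in empty liver 2 (0.286 TPM) and 0 reads in the other 8 livers. A level of Areg below about 3 reads in a library could not be seen at this depth. Of the ligands outside the 10 genes, Btc (betacellulin) rose, with a log2 fold change of 2.91 (SE 0.52, adjusted p = 0.0018) in empty livers and 2.41 (SE 0.52, adjusted p = 0.0060) in UTOpiA livers. Ereg had 8 reads and Epgn 0 reads over all 9 livers.

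**Figure D4:**
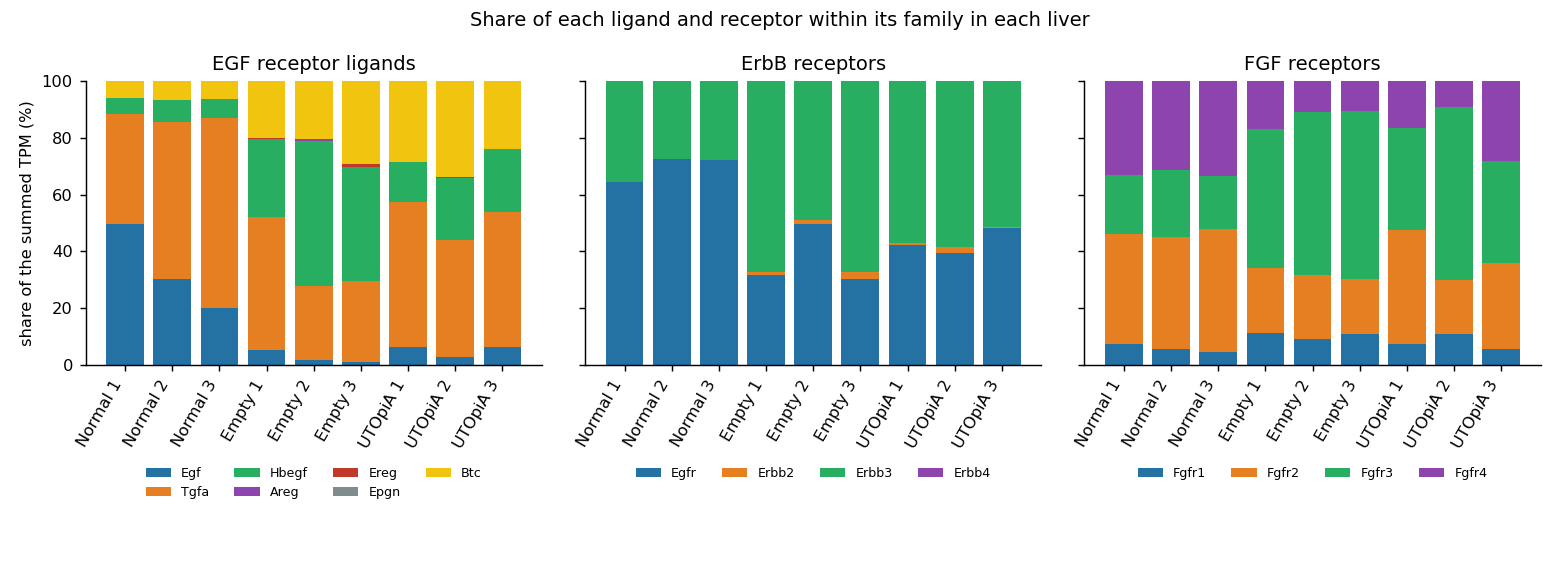
Share of each gene in the summed TPM of its family (y axis, %) in each liver, for 7 EGF receptor ligands, 4 ErbB receptors and 4 FGF receptors. Each bar is 1 liver. Egf and Tgfa together make up most of the ligand TPM in normal livers, Hbegf and Btc take larger shares in the ACLF livers, Erbb3 gains on Egfr, and Fgfr3 takes the place of Fgfr2 as the leading FGF receptor in most ACLF livers.

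Shares within a family, which do not depend on how libraries are scaled, changed in composition. Egf made up 33.3 ± 15.1% (SD, n = 3) of the summed TPM of the 7 EGF receptor ligands in normal livers, 2.48 ± 2.28% in empty livers and 5.10 ± 1.98% in UTOpiA livers. Hbegf made up 6.81 ± 1.02%, 39.5 ± 11.7% and 19.4 ± 4.50% in the same order. Its share was 27.4, 50.8 and 40.2% in the 3 empty livers and 14.2, 21.9 and 22.1% in the 3 UTOpiA livers, with no overlap among the 3 groups. Tgfa held 53.5 ± 14.2%, 34.0 ± 11.3% and 46.6 ± 5.13%, and these ranges overlapped. Btc held 6.35 ± 0.403%, 23.2 ± 5.11% and 28.8 ± 5.02%. The summed TPM of the 7 ligands was 5.20 to 9.35 in normal livers, 12.5 to 39.6 in empty livers and 6.61 to 17.2 in UTOpiA livers.

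Of the ErbB receptors, Egfr, which binds these ligands, fell in empty livers on the TMM scale, while Erbb3 did not pass the 2-fold threshold there. Egfr (chr14:99919485-100098796, plus strand) measured 51.4, 62.9 and 68.4 TPM in normal livers, 35.9, 44.2 and 25.4 TPM in empty livers and 38.5, 35.6 and 39.8 TPM in UTOpiA livers. All ACLF livers lay below all normal livers. In TPM the UTOpiA livers were closer to each other than the empty livers were. On the TMM scale the spreads of these groups were more alike. There Egfr measured 87.5, 68.9 and 114.9 CPM in UTOpiA livers and 77.1, 90.8 and 47.8 CPM in empty livers. Its log2 fold change was -1.30 (SE 0.27, adjusted p = 0.0036) in empty livers and -0.97 (SE 0.27, adjusted p = 0.0178) in UTOpiA livers, the latter just under 2-fold and not called. On library totals these values were -0.77 and -0.64, in the same direction and under 2-fold, and relative to the median of all genes they were -1.37 and -1.06.

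Erbb3 (chr7:2989340-3010350, minus strand), the neuregulin receptor, measured 28.5, 23.8 and 26.5 TPM in normal livers, 76.5, 43.5 and 56.9 TPM in empty livers and 52.0, 52.8 and 42.6 TPM in UTOpiA livers. Every ACLF liver lay above the normal livers. Its log2 fold change in empty livers was 0.66 (SE 0.23, adjusted p = 0.0375) on the TMM scale, which is under 2-fold, and 1.20 on library totals, where it was called. The ratio of Egfr to Erbb3 TPM was 1.81 to 2.65 in normal livers, 0.45 to 1.02 in empty livers and 0.67 to 0.93 in UTOpiA livers. Egfr made up 69.6 ± 4.56% (SD, n = 3) of the summed TPM of the 4 ErbB receptors in normal livers, 37.1 ± 10.9% in empty livers and 43.3 ± 4.43% in UTOpiA livers, and the normal range did not overlap the others. The summed TPM of the 4 receptors stayed between 79.9 and 113 in all 9 livers.

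Erbb2, the kinase-active partner of ERBB3, had at most 3 reads in a normal liver, 48 to 101 reads in the empty livers and 14 to 77 reads in the UTOpiA livers. It was called higher in both ACLF groups than in normal livers (adjusted p = 0.0021 and 0.0067), and no fold is given because the normal livers were at the limit of detection. At 1.02 to 2.27 TPM in empty livers it made up under 3% of the ErbB receptor TPM. Erbb4 had 8 reads over the 9 livers. Of the EGF family list, 9 of the 14 genes found in the tables were tested. Against normal livers, 3 of those 9 were called higher in empty livers (Erbb2, Hbegf and Btc), beside 20.7% of all tested genes, and 2 lower (Egf and Egfr), beside 11.1%, with a median log2 fold change of 0.68 beside 0.045 for all genes. In UTOpiA livers 2 were called higher (Erbb2 and Btc), beside 18.2% of all tested genes, and 1 lower (Egf), beside 6.81%, with a median of 0.39. With each library left out these medians were 0.46 to 1.13 in empty livers and 0.18 to 0.60 in UTOpiA livers.

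Fgfr2 (chr1:200590953-200696928, minus strand), a receptor for paracrine FGFs, measured 15.3, 16.4 and 16.4 TPM in normal livers, 22.6, 43.2 and 37.0 TPM in empty livers and 44.0, 32.2 and 20.2 TPM in UTOpiA livers. All ACLF livers lay above the normal livers, with a spread of about 2-fold within each ACLF group. Its log2 fold change was 0.57 (SE 0.25, adjusted p = 0.0918) in empty livers and 0.66 (SE 0.25, adjusted p = 0.0653) in UTOpiA livers on the TMM scale, neither called. On library totals it was called in both, at 1.12 and 1.04. Its share of the summed TPM of the 4 FGF receptors was 40.6 ± 2.59% in normal livers, 21.6 ± 2.00% in empty livers and 29.8 ± 10.9% in UTOpiA livers (SD, n = 3).

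The other FGF receptors differed in size of change. Fgfr3 went from 8.39 ± 1.5 TPM in normal livers to 90.7 ± 36.7 TPM in empty livers (SD, n = 3), with a log2 fold change of 2.90 (SE 0.45, adjusted p = 0.0011), and to 55.9 ± 43.0 TPM in UTOpiA livers, with one of 2.31 (SE 0.44, adjusted p = 0.0041). Fgfr1 rose too, with log2 fold changes of 2.32 (SE 0.44) and 1.71 (SE 0.43). Without UTOpiA liver 2 the UTOpiA values were 1.70 for Fgfr3 and 1.1 for Fgfr1. Fgfr4, the bile acid-regulating receptor of hepatocytes, had a log2 fold change of 0.06 (SE 0.19, adjusted p = 0.82) in empty livers. Fgf2 was the only gene of this list called lower, at -1.07 (SE 0.24) in empty livers, and it was not called on library totals. Of the 15 genes of FGF ligands and receptors in the tables, 9 were tested, 2 were called higher and 1 lower in empty livers, shares near the 20.7% and 11.1% of all tested genes, with a median log2 fold change of 0.06 beside 0.045 for all genes. That median had no stable sign: it was -0.14 without normal liver 2, -0.058 without empty liver 3 and 0.33 without empty liver 2. In UTOpiA livers 2 were called higher (Fgfr3 and Fgfr1), beside 18.2% of all tested genes, and 0 lower, beside 6.81%. Without empty liver 2, Fgf1 was called lower in empty livers as well, without empty liver 2 or 3 Fgf21 was called lower in UTOpiA livers, and without normal liver 3 Fgfr1 was not called there. Fgf7 and Fgf10, ligands of FGFR2, had 8 and 3 reads over the 9 livers.

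The comparison of the UTOpiA group with the empty group asks how ACLF livers differed between them. The UTOpiA circuit added both the GMA column and the iHLCs, so their effects cannot be told apart here. Livers came from surviving rats only. The paper reports very high early mortality in the empty group and the highest survival with UTOpiA. The part of this selection in the differences between the groups was not tested. None of the 9 tested genes was called by edgeR, in which 0.00% of all tested genes were called, although 1456 of them had an unadjusted p under 0.05. Hbegf had the largest difference, a log2 fold change of -2.06 (SE 0.60, 95% interval -3.42 to -0.71, unadjusted p = 0.0074, adjusted p = 0.36). By DESeq2, the tool the study used, Hbegf was called lower at -2.08 (adjusted p = 0.048), beside 0.504% of tested genes called lower. Without empty liver 2 it was -1.09 by edgeR (adjusted p = 0.28) and -1.12 by DESeq2 (adjusted p = 0.24), so the call rested on that liver. Without UTOpiA liver 2 it was -2.51 by DESeq2 (adjusted p = 0.0078), which was called, and -2.47 by edgeR (adjusted p = 0.13), which was not. The TPM ranges of the 2 groups overlapped for Hbegf, at 3.44 to 20.1 TPM in empty and 1.45 to 3.76 TPM in UTOpiA livers.

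Hgfac was the other gene with an unadjusted p under 0.05, with a log2 fold change of 0.60 (SE 0.23, unadjusted p = 0.0261, adjusted p = 0.44) between UTOpiA and empty livers. It was 0.36 to 0.80 under the alternatives, each in the same direction and under 2-fold. Its adjusted p under the alternatives was above 0.05 except by DESeq2 without UTOpiA liver 2, where it was 0.0030 at a log2 fold change of 0.77. Hgf had a log2 fold change of -0.61 (SE 0.40, adjusted p = 0.63), which became 0.07 without empty liver 2. The 95% intervals of the log2 difference were -0.34 to 0.45 for Met, -0.26 to 0.92 for Egfr, -0.58 to 0.44 for Erbb3, -0.47 to 0.66 for Fgfr2, -0.97 to 0.29 for Tgfa and -1.17 to 1.76 for Egf. A change of 2-fold or more lay outside the intervals of Met, Egfr, Erbb3, Fgfr2 and Tgfa and inside those of Hgf, Hgfac, Hbegf and Egf. These intervals use a spread shared by all 3 groups. The median SD of log2 CPM was 0.19 in normal, 0.29 in empty and 0.30 in UTOpiA livers, so the intervals may be too narrow here. With only the compared groups fitted, 975 genes had an unadjusted p under 0.05 by edgeR, instead of 1456. A 2-fold change was thus not excluded for any of these genes.

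**Figure D5:**
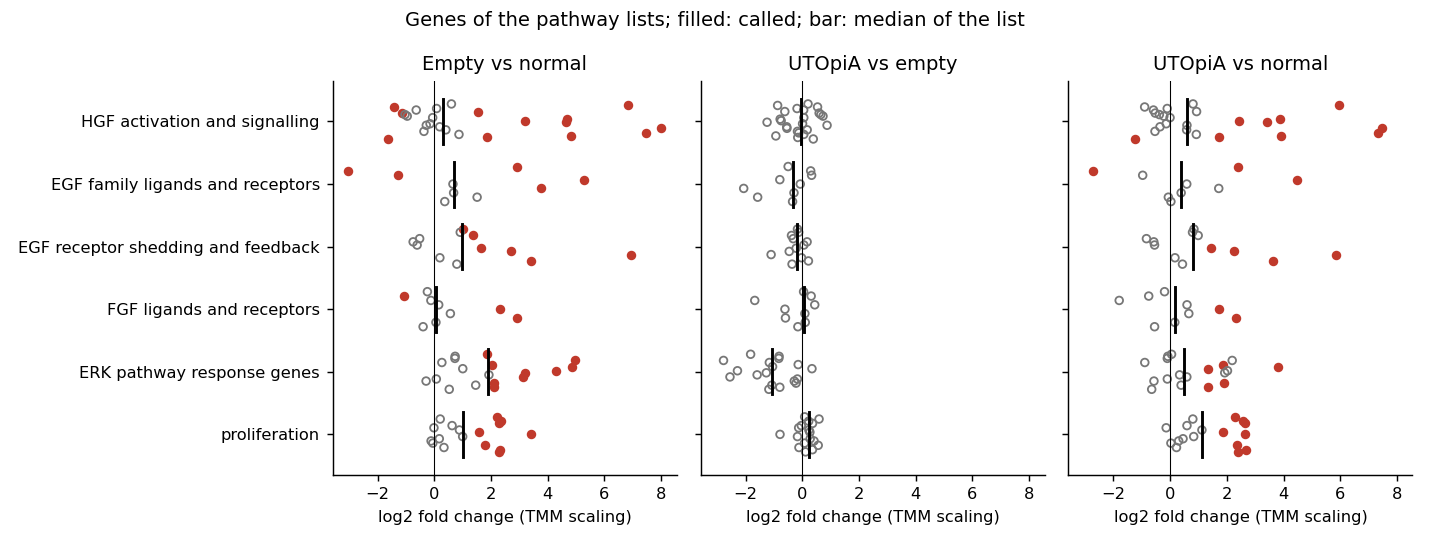
Log2 fold change on the TMM scale (x axis) of the tested genes of 6 pathway lists (y axis) in 3 comparisons. Each point is 1 gene, filled where called, and the vertical bar is the median of the list. In empty livers against normal livers the ERK response genes have the highest median, 1.9, and between UTOpiA and empty livers no gene is called and the ERK median is -1.06, which is -0.24 without empty liver 2.

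Genes that shed or restrain the EGF receptor system were called higher in empty livers for 6 of the 12 tested, beside 20.7% of all tested genes, and 0 were called lower, beside 11.1%. The median was 0.96 beside 0.045 for all genes. Rhbdf2, the iRhom2 that carries the shedding protease ADAM17 to the cell surface, had a log2 fold change of 2.72 (SE 0.31, adjusted p = 0.00022). Its relative Rhbdf1 and the sheddase Adam10 were called as well, Adam10 just over 2-fold and not without normal liver 1, normal liver 2 or empty liver 1. Adam17 had a log2 fold change of 0.91 (SE 0.17), under 2-fold, and was called without empty liver 2. Rhbdl2, a rhomboid protease, and Sh3gl2, an endocytosis protein, were called higher from at most 2 reads in a normal liver, so no fold is given. Errfi1, the feedback inhibitor of EGFR also known as MIG6, had 351 to 467 TPM in normal livers and a log2 fold change of -0.52 (SE 0.42, adjusted p = 0.33), and was called lower without empty liver 2. In UTOpiA livers 4 of the 12 were called higher than in normal livers, beside 18.2% of all tested genes. Sh3gl2 was not called in empty livers without normal liver 2 or 3, nor in UTOpiA livers without normal liver 2 or UTOpiA liver 2.

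Of the 18 tested genes that respond to ERK signalling, 9 were called higher in empty livers than in normal livers, beside 20.7% of all tested genes, and 0 lower, beside 11.1%. The median was 1.9 beside 0.045 for all genes, and 1.27 without empty liver 2. The immediate early gene Egr1 measured 1.13 to 2.93 TPM in normal livers, 10.4, 214 and 15.4 TPM in empty livers and 5.79 to 16.3 TPM in UTOpiA livers, with a log2 fold change of 4.96 (SE 1.23, adjusted p = 0.0101) in empty livers, and 2.29 (adjusted p = 0.0047) without empty liver 2. Etv4 and Fosl1, transcription factors induced by ERK, were called higher from at most 3 reads in a normal liver. Ier3 measured 45.7, 417 and 58.8 TPM and Phlda1 12.2, 95.7 and 13.3 TPM in the empty livers. Empty liver 2 was the highest of its group for Egr1, Ier3 and Phlda1. Among the 10 genes it was the highest in TPM for Hgf, Hgfac, Tgfa, Hbegf, Areg, Egfr and Fgfr2, not for Met, Egf or Erbb3. Over all tested genes it deviated most from its group mean in log2 CPM (root mean square 0.55, against 0.40 in the other empty livers). Albumin took 3.91% of its reads, against 1.65% and 1.58% in the others. In UTOpiA livers 5 of the 18 were called higher than in normal livers, beside 18.2% of all tested genes, and 3 without normal liver 2 or normal liver 3. Between UTOpiA and empty livers the median was -1.06 beside 0.00 for all genes, 6 of the 18 had an unadjusted p under 0.05, and 0 were called. Without empty liver 2 that median was -0.24, and with each other library left out it was -1.38 to -1.05. The number with an unadjusted p under 0.05 was 2 without empty liver 2 or UTOpiA liver 3, 4 without UTOpiA liver 1, 11 without empty liver 1, 10 without empty liver 3 and 5 to 7 otherwise. Summed TPM of the ERK response genes was 1025 in empty liver 2, 167 and 212 in the other empty livers and 131 to 197 in UTOpiA livers.

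Of 17 tested proliferation genes, 8 were called higher and 0 lower in each ACLF group than in normal livers, beside 20.7% of all tested genes called higher in empty and 18.2% in UTOpiA livers, with medians of 1.00 in empty livers and 1.12 in UTOpiA livers beside 0.045 and 0.053 for all genes. The 8 included the mitotic genes Ccna2, Ccnb1 and Plk1 and the cell cycle inhibitor Cdkn1a, which had log2 fold changes of 3.41 (SE 0.46) and 2.63 (SE 0.46). Ccnd1, the cyclin that growth factors induce in hepatocytes, had a log2 fold change of 0.63 (SE 0.56, adjusted p = 0.39) in empty livers and was not called. Plk1 was not called in empty livers without normal liver 1, normal liver 2 or empty liver 2. Without normal liver 1 or 2, the count in empty livers was 4, a share near that of all tested genes. In UTOpiA livers it was 5 without normal liver 1, 4 without normal liver 2 and 5 without UTOpiA liver 1, and Plk1 was not called without normal liver 2 or UTOpiA liver 1.

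The genes whose log2(TPM + 1) followed Hgf most closely over the 9 livers, among 9479 genes of at least 5 TPM on average, were Flcn, Maff, Gem, Abhd17b and Tnfaip3, with Pearson's r of 0.97 to 0.98. Maff, a small Maf transcription factor, and Tnfaip3, the NF-kappa-B inhibitor A20, are known as rapidly induced genes. For Met they were Dmxl1, Dffa, Dennd4c, Rprd2 and Rexo2, with r of 0.96 to 0.98. For Egfr they were Pex7, Slc39a8, Aadat, Mmut and Rpl10l, with r of 0.95 to 0.97, of which Pex7, Aadat and Mmut encode peroxisomal or mitochondrial proteins of metabolism. These values are a description over livers that fall into 3 groups and differ in the scaling described above.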

How the data were processed

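RNA was sequenced from 9 rat livers, 3 per group, and libraries were assigned to groups by their labels. The deposited counts are whole numbers of uniquely mapped reads per gene, not normalised, and the authors deposited TPM beside them, scaled per gene length. The paper names Cutadapt 1.9.1, HISAT2 2.0.1, featureCounts 2.6.0 and the mouse build GRCm38, whereas the submitters' processing notes name Trimmomatic, HISAT2, featureCounts and the rat build rn6. Positions are printed as the tables give them. The MGIEasy and NEBNext directional kits are named by the paper and the labels respectively, and whether strand was used in counting is not given in the sources used here. None of the 10 genes overlapped another listed gene.

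Counts were fitted with edgeR 4.0.16 in R 4.3.3 (filterByExpr, TMM, all 9 libraries, one mean per group, robust quasi-likelihood, two-sided test), with Benjamini-Hochberg adjustment over 14089 genes. Calls need an adjusted p under 0.05 and over 2-fold, the study's thresholds. Within groups, log2 CPM had a median SD of 0.19 to 0.30. Rows without a symbol numbered 76 and took at most 0.0033% of reads in a library. The labels call the libraries of a group biological replicates. TPM was compared by exact permutation tests. SEs are the fold change over the root of the test statistic. Alternatives were DESeq2 1.42.0, limma 3.58.1 on log2(TPM + 1) and log2(TPM + 0.1), other scalings and filters, only the compared groups, a replicate block and each library left out. DESeq2 without empty liver 2 or UTOpiA liver 2 was added after the values were seen. The fits were tested on simulated data. The correlations of same-numbered livers' deviations were -0.18 to 0.06, so numbers were not taken as pairs.

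The 10 genes, gene lists and tests were chosen with earlier results of these data known. The values of 1 gene of the HGF list, which is included in its counts, are not reported here. Named genes were the 10 genes, up to 3 called genes of largest change per list, direction and comparison, other members of the ligand and receptor families and the 5 genes most correlated with Hgf, Met and Egfr. St14, Plau, Plaur, Plat, Stat3, Hpn, Klkb1, Rhbdf1, Adam10, Adam17, Errfi1, Ier3, Phlda1 and Ccnd1 were named for their roles or after their values were seen. Markers of endothelium, macrophages, neutrophils, T lymphocytes, B lymphocytes and erythroid cells were also tested. In the empty group against normal livers 1 of 7, 5 of 7, 5 of 5, 4 of 5, 0 of 2 and 4 of 4 tested markers, in that order, were called higher. Intervals and limits of detection cover counting error or the spread between livers only.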

Additional observations from a re-analysis of the deposited data

How the results depend on the processing

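The number of the 10 genes called in empty against normal livers was 5, though on library totals and by limma these were Egf, Hbegf, Hgf, Erbb3 and Fgfr2. It was 3 with at least 10 counts in every library, which removed Egf and Hbegf from the test, 6 with no fold threshold and 4 without empty replicate 2 by edgeR or DESeq2. In UTOpiA against empty livers 0 were called by edgeR and limma, 1 by DESeq2, 1 by DESeq2 without UTOpiA replicate 2 and 0 by DESeq2 without empty replicate 2. In UTOpiA against normal livers 1 was called, and 2 with no fold threshold, by DESeq2, by limma on log2(TPM + 1), with only the compared groups, with a replicate block and by DESeq2 without empty replicate 2 or UTOpiA replicate 2. It was 3 by limma on log2(TPM + 0.1), 4 on library totals, 0 with at least 10 counts, and 1 to 2 with each library left out. No pairing of replicate numbers was assumed: with the replicate block the counts were 5, 0 and 2 (4278, 0 and 3241 of all genes against 4476, 0 and 3522), Hbegf being the gene added. Library totals gave 4477 genes higher and 682 lower in empty against normal livers, instead of 2916 and 1560, and 3437 and 486 instead of 2563 and 959 in UTOpiA against normal livers. Over all genes, calls in UTOpiA against empty livers numbered 0 by edgeR, 124 by DESeq2, 48 and 492 by these tools without empty replicate 2, and 49 and 579 without UTOpiA replicate 2. With no fold threshold 6824 and 5571 genes, and with at least 10 counts 2823 and 2085 genes, were called in empty and in UTOpiA against normal livers. Of 756 counts of called genes in the pathway lists, 66 moved by over 1.5 times. Among them, EGF family genes higher in empty livers numbered 5 on library totals and 0 with at least 10 counts against 3. That filter removed these 3 genes (Erbb2, Hbegf and Btc) from the test. EGF receptor shedding genes higher in UTOpiA livers numbered 7 on library totals against 4. ERK response genes higher in UTOpiA livers numbered 3 by limma on log2(TPM + 1) against 5. Proliferation genes called higher numbered 4 with at least 10 counts against 8 in each group.

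Direction turned only in values that were not called. For Met in empty against normal livers the log2 fold change was 0.49 on library totals, 0.044 with at least 10 counts, 0.44 by limma on log2(TPM + 1) with or without a filter and 0.46 on log2(TPM + 0.1). In UTOpiA against empty livers it was -0.092 on library totals, -0.17 and -0.18 by limma on log2(TPM + 1), with or without a filter, and log2(TPM + 0.1), -0.20 by DESeq2 without UTOpiA replicate 2, and -0.17 to 0.17 with each library left out. In UTOpiA against normal livers it was 0.40 on library totals, 0.0046 with no filter on counts, 0.086 with at least 10 counts, 0.27 and 0.28 by limma, 0.0079 with only the compared groups and -0.23 to 0.12 with each library left out. For Fgfr2 in UTOpiA against empty livers it was -0.086 on library totals, -0.11 by limma at either pseudocount and with no filter, and -0.21 to 0.32 with each library left out. Against empty livers, leaving out each library gave UTOpiA ranges of -0.92 to 0.066 for Hgf, -0.14 to 0.64 for Egf, -0.56 to 0.042 for Tgfa and -0.24 to 0.22 for Erbb3, and DESeq2 without empty replicate 2 gave 0.038 for Hgf and 0.021 for Tgfa. Tgfa ranged from -0.016 to 0.59 in empty and from -0.11 to 0.17 in UTOpiA against normal livers, and was -0.13 in the latter by DESeq2 without UTOpiA replicate 2. Differences in mean TPM with each library left out ranged, in UTOpiA minus empty livers, from -8.98 to 2.31 for Met, -0.113 to 0.131 for Egf, -2.08 to 7.32 for Egfr and -8.10 to 3.83 for Fgfr2, and in UTOpiA minus normal livers from -0.719 to 10.6 for Met. The cause of these turns was not tested. Of 561 log2 fold changes under alternatives, 486 kept direction and call, 40 turned, 25 gained a call and 10 lost it. With 3 livers per group, small differences could have been missed, most of all where reads were low, as few as 6 for Egf. The smallest difference that could be detected was not tested.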

Other observations

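UTOpiA liver 2 stood apart from the other two of its group for several genes of HGF activation. St14 (matriptase) measured 11.2, 35.3 and 7.0 TPM in the 3 UTOpiA livers, Plau (urokinase) 16.8, 62.8 and 8.56 TPM and Cd44 38.1, 96.6 and 19.5 TPM. The values of UTOpiA liver 2 lay within the ranges of the empty livers for St14, Plau and Cd44, and the other two UTOpiA livers lay below them for each of these genes. None of these genes was called between UTOpiA and empty livers by edgeR. Summed TPM in UTOpiA livers 1 to 3 was 180.3, 389 and 128 for cholangiocyte markers, 685, 1068 and 462 for stellate cell and fibroblast markers, 387, 507 and 175 for neutrophil markers and 49.9, 93.5 and 28.4 for T lymphocyte markers, each highest in liver 2. That of hepatocyte markers was 77189, 49788 and 68925, lowest in liver 2. Endothelial markers (103, 77.5 and 95.8) and erythroid markers (1398, 836 and 1314) were also lowest there. Macrophage markers (711, 591 and 318) and B lymphocyte markers (2.32, 2.03 and 1.57) were highest in liver 1. The part of these cell types in the values of St14, Plau and Cd44 was not tested.

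Fgf21, a hormone of the FGF family that hepatocytes secrete under stress, measured 12.6, 11.4 and 29.2 TPM in normal livers, 25.0, 5.71 and 41.1 TPM in empty livers and 6.83, 5.88 and 6.23 TPM in UTOpiA livers. The UTOpiA livers lay below all normal livers and overlapped the empty livers through empty liver 2. Its log2 fold change was -1.67 (SE 0.64, unadjusted p = 0.0283, edgeR adjusted p = 0.44) between UTOpiA and empty livers and -1.80 (SE 0.65, adjusted p = 0.0528) between UTOpiA and normal livers, neither called. The latter was called without empty liver 2 or empty liver 3. Fgf21, St14, Plau and Cd44 were chosen here after their values were seen.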
